A study of Homo sapiens with 8 samples.

Results

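The 50 genes described here are interferon-stimulated genes, that is, genes known for being switched on by interferon. They were chosen as a list of symbols and found through their Ensembl identifiers among the 60483 gene identifiers counted in each library. All 50 were found, and 49 of them passed the filter on low counts and were tested among 13982 genes. RNA was sequenced from NB4 cells, an established line of acute promyelocytic leukemia that carries the PML/RARα fusion. Cells of every group had been infected with lentivirus for 72 h to knock down the endogenous fusion, so the controls are depleted cells and no unmanipulated NB4 library enters the comparisons. The replacement was an empty vector (EV), HA-tagged full-length PML/RARα (PR), HA-tagged PML/RARα with the F158E mutation (F158E) or HA-tagged PML/RARα of the ΔIDR form (ΔIDR). The labels call both mutants incompetent for phase separation, the gathering of a protein into dense droplets. They do not name the promoter of the vector or the residues missing from ΔIDR. Each of the 4 groups had 2 libraries.

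Interferons bind receptors on the cell surface, and the receptor kinases JAK1 and TYK2 then phosphorylate STAT proteins. STAT2 and IRF9 take part in the factor ISGF3, which binds the interferon-stimulated response element in promoters, whereas other STAT pairs bind the gamma-activated sequence. The induced proteins block viral replication, sense foreign nucleic acid or amplify the pathway itself, and many of their genes keep a basal level without added interferon. PML, a partner of the fusion, is itself an interferon-inducible gene.

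Gene counts per library ran from 16779364 to 21965389. Levels are given in CPM, with edgeR's trimmed-mean factors bringing the libraries to 1 common count total, and fold changes are log2 values ± SE from edgeR's quasi-likelihood test over all 8 libraries, with Benjamini-Hochberg adjustment over all tested genes and n = 2 libraries in each group. The labels do not state whether the replicates of a group were cultured apart. The p-values therefore rest on a spread between replicates that may be only technical. The labelled cell type was checked on 6 promyelocyte markers, whose summed level was 3769 to 3786 CPM with PR and 4217 to 4780 CPM in the other libraries. Most of this sum was MPO. For AZU1 the libraries lay at 72.1 to 73.9 CPM with EV, 27.5 to 27.9 with PR, 59.5 to 61.0 with F158E and 84.1 to 91.9 with ΔIDR, and for PRTN3 at 290.1 to 299.5, 217 to 222, 231 to 243 and 433 to 440.4 CPM, so that both of these granule protein genes were lowest with PR and highest with ΔIDR. Other markers of the 6 had another order. CTSG was at 23.6 and 27.4 CPM with EV, 19.0 and 19.8 with PR, 32.3 and 31.8 with F158E and 20.4 and 21.1 with ΔIDR. CD33 was lowest with ΔIDR, at 50.8 and 57.1 CPM, beside 60.7 to 64.1 CPM elsewhere. ELANE, another of these markers, reached at most 2 counts. All 5 markers of plasmacytoid dendritic cells, a type that makes much interferon, had at most 6 counts in every library, and LILRA4, IL3RA and GZMB were at 0 throughout. The summed level of 5 lymphoid markers moved with ΔIDR, at 43.8 to 45.7 CPM there, 35.9 to 36.5 with EV, 23.8 to 30.0 with PR and 24.5 to 26.1 with F158E, almost all of it NKG7, while MS4A1 was at 0 and CD3E at no more than 1 count. The summed level of 5 monocyte markers was 60.3 to 62.5 CPM with EV and 39.6 to 51.8 elsewhere. The part of these markers in the results was not tested. The targeted genes were counted first: PML was at 51.9 ± 1.28 CPM (SD, n = 2) with EV, 124 ± 4.33 with PR, 65.9 ± 0.219 with F158E and 442 ± 3.42 with ΔIDR. RARA was at 23.1 ± 1.41, 77.0 ± 1.88, 32.3 ± 0.181 and 1358 ± 9.67 CPM in that order. These counts pool wild-type PML and RARA, any endogenous fusion that remained and the construct, which cannot be told apart here. The part of their differences between groups in the results below was not tested.

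Full-length PML/RARα split the list. Against EV, 25 of the 49 tested members were lower and 12 were higher, beside 24.4% of all tested genes lower and 24.2% higher, and the median log2 fold change of the members was -0.33, beside 0.00 for all tested genes. The share of members that were higher was thus close to that of all genes, and the share that were lower was above it. The 2 mutants did not give the same picture against EV. With F158E, 13 members were lower and 0 were higher than EV (0 also at an unadjusted p under 0.05 and in DESeq2), beside 4.67% and 3.98% of all genes. With ΔIDR, 15 members were higher and 0 were lower than EV (1 at an unadjusted p under 0.05, 0 in DESeq2), beside 5.06% and 5.23% of all genes. These 3 comparisons use the same EV libraries. In bulk RNA, fewer cells that express a gene and less RNA per cell cannot be told apart.

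Compared with PR, 19 members were higher and 16 lower with F158E, beside 22.2% and 21.8% of all genes, and 28 were higher and 9 lower with ΔIDR, beside 24.9% and 24.9%. Medians were 0.02 for F158E and 0.71 for ΔIDR, against 0.00 for all genes in both. Directly between the mutants, 29 members were higher with ΔIDR and 1 was lower, beside 9.17% and 9.37% of all genes, with a median of 0.62. IFITM2, an endosomal restriction factor, was the single lower member, at -0.25 ± 0.07 (adjusted p = 0.00449), and the call ended without F158E replicate 1 (-0.20, adjusted p = 0.126) and without ΔIDR replicate 2 (-0.16, adjusted p = 0.275). The call counts differed in how far they rested on single libraries. All 28 members higher with ΔIDR than PR, and 21 of the 25 lower with PR than EV, kept the call whichever of the 8 libraries was left out. Of the 15 members higher with ΔIDR than EV only 5 did, namely IFIT1, IFIT2, IFIT3, OASL and BST2, and of the 13 lower with F158E than EV 6 did, namely IFIT5, IFI6, OAS1, OAS3, DTX3L and LGALS3BP. So did 19 of the 29 higher with ΔIDR than F158E and 9 of the 12 higher with PR than EV. Against PR, 15 of the 19 higher and 10 of the 16 lower with F158E did, and 5 of the 9 lower with ΔIDR.

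**Figure D1:**
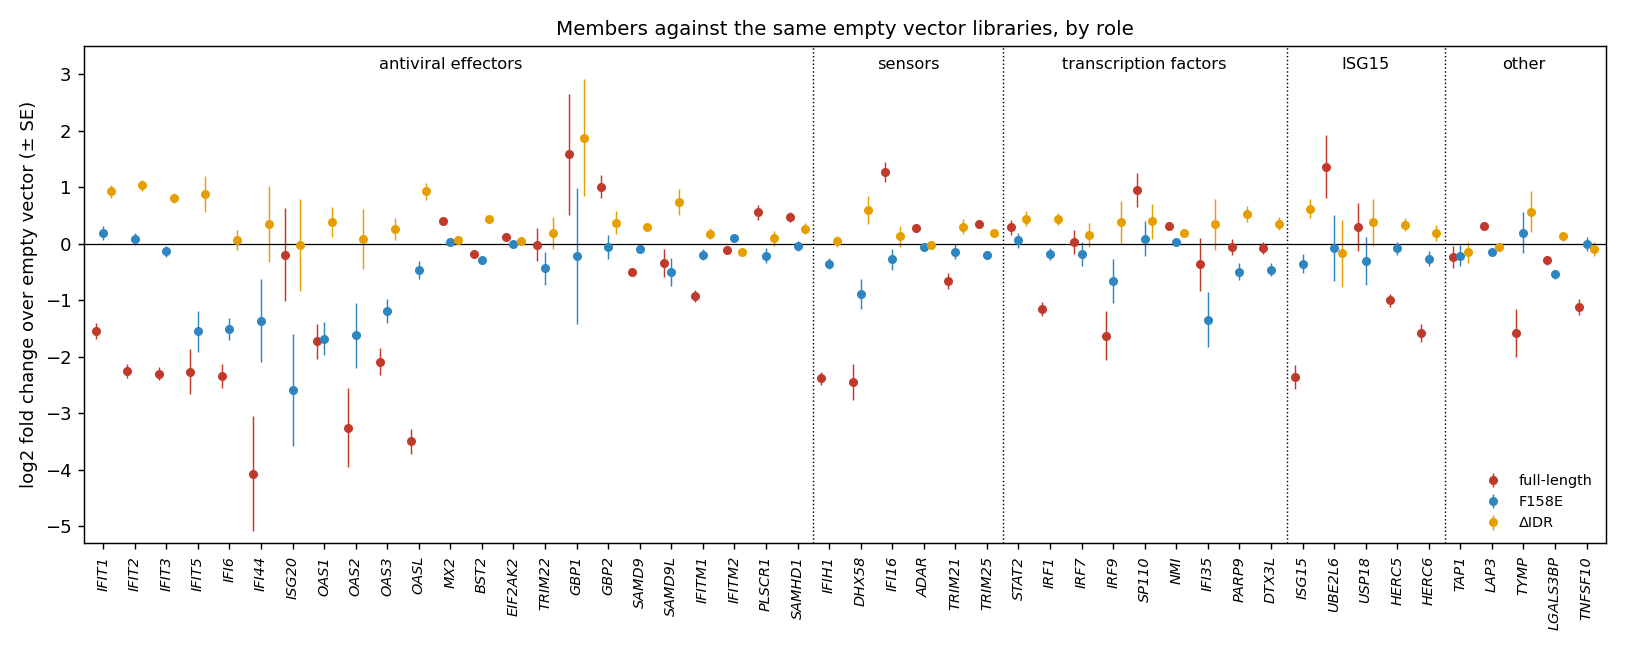
Log2 fold change over empty vector (vertical axis, with SE bars) for 48 tested members in 5 role groups (horizontal axis), for full-length PML/RARα, F158E and ΔIDR; IFI44L, at 0 counts with full-length PML/RARα, is not drawn. In the antiviral effectors the full-length points reach -4.06 at IFI44, F158E points lie near 0 for IFIT1 to IFIT3 but below it for IFIT5, IFI6 and OAS1 to OAS3, and ΔIDR points lie mostly above 0.

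The order of the 8 libraries was read without a threshold on p. Both PR libraries lay below the other 6 for 21 of the 49 members, beside 24.9% of all tested genes, and above them for 11, beside 25.6%. Both ΔIDR libraries were highest for 24 members, beside 10.0% of all genes, and lowest for 0, beside 9.33%. F158E was lowest for 8 members (4.59% of all genes) and highest for 1 (4.56%), and EV was at neither end for any member (6.22% and 5.26%). For 17 members PR was lowest and ΔIDR highest at once, beside 5.13% of all genes, and for 8 members no group stood apart, beside 32.2%. Without the trimmed-mean factor F158E was lowest for 9 members and ΔIDR highest for 23, with the other counts the same.

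Some members were too low to read. ZBP1, a sensor of Z-form nucleic acid, had 0 counts in all 8 libraries and was not tested. Among those tested, 7 fell under 10 counts in at least 1 library: IFIT5, IFI44, IFI44L, ISG20, OAS2, GBP1 and IRF9. GBP1, a guanylate-binding protein, never exceeded 13 counts and was called in no comparison. The 42 members with at least 10 counts in every library were also read apart, with shares of all tested genes in brackets. PR against EV gave 20 lower and 12 higher (24.4% and 24.2%). ΔIDR gave 23 higher and 9 lower against PR (24.9% and 24.9%), and 15 higher and 0 lower against EV (5.06% and 5.23%). F158E gave 18 higher and 15 lower against PR (22.2% and 21.8%), with a median of -0.12, beside 0.02 for all 49 tested members. Against EV, F158E gave 0 higher and 12 lower (3.98% and 4.67%). ΔIDR against F158E gave 25 higher and 1 lower (9.17% and 9.37%). Per kilobase of exon, the EV level was highest for BST2 at 66.3 CPM per kb, followed by LAP3 at 46.3, IFITM2 at 45.8 and IFITM1 at 37.8. At the bottom stood GBP1 at 0.0321, IFI44L at 0.0841 and ISG20 at 0.0978 CPM per kb.

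Many of the promoter sequences carry the mark by which interferon is known to reach such genes. RefSeq promoter windows (GRCh38.p14, 250 bases before to 50 after the start) were matched for 39 of the 50 members, and both strands were searched for the core of the interferon-stimulated response element (GAAA, any 2 bases, then GAAA again) and for TTCNNNGAA, the gamma-activated sequence. No window was at hand for the other 11: IFIT2, OAS2, OASL, MX2, TRIM22, GBP2, IFITM2, DHX58, ZBP1, IRF7 and USP18. The response element core lay in a window of 25 of the 39 matched genes (64.1%), beside 4.38% of all RefSeq genes and 3.91% of the tested genes with a window. Counted by window, which holds length equal, it lay in 56.0% of the 50 member windows and 3.57% of all windows. The gamma-activated sequence lay in 10 of the 39 (25.6%), beside 9.38% of all RefSeq genes. Before the start only, the shares were 56.4% against 3.71% for the core and 20.5% against 8.09% for the gamma-activated sequence. Stretches upstream of the start follow for members whose levels the results turn on, 5′ to 3′ on the coding strand, with the motif letters in capitals; TTTC, any 2 bases and TTTC is the core read from the other strand, and neighbouring copies may overlap. The first group were members that were low with PR.
IFIT1 (chr10:89392493-89392542, plus strand): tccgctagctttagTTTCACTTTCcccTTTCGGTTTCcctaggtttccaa
IFIT3 (chr10:89327832-89327891, plus strand): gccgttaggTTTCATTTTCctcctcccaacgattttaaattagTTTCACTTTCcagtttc
IFIH1 (chr2:162318805-162318854, minus strand): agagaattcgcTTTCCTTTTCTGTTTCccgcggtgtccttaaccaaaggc
ISG15 (chr1:1013372-1013421, plus strand): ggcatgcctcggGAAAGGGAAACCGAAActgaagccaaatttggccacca
HERC5 (chr4:88456984-88457058, plus strand): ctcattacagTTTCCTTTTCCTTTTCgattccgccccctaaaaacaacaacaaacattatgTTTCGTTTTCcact
IFIT5 and OAS3, also low with PR, stayed below EV with F158E.
IFIT5 (chr10:89414508-89414558, plus strand): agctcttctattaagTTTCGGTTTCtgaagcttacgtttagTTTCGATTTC
OAS3 (chr12:112938302-112938351, plus strand): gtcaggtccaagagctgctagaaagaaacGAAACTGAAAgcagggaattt
OAS1 and IRF1 are shown for the gamma-activated sequence, in capitals.
OAS1 (chr12:112906787-112906811, plus strand): agcagagTTCAGAGAAaggctgggc
IRF1 (chr5:132490864-132490913, minus strand): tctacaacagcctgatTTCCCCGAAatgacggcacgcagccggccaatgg
PLSCR1 and LAP3 are shown because they hold the same core and were high with PR.
PLSCR1 (chr3:146544668-146544697, minus strand): gcgggaaccggGAAAAGGAAAccgtgttgt
LAP3 (chr4:17576998-17577047, plus strand): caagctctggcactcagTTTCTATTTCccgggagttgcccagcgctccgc
Of the 25 members with the core, 16 were lower and 4 higher with PR than EV, with a median of -0.66. Of the 14 matched members without it, 5 were lower and 6 higher, with a median of -0.03. Among all tested genes 24.4% were lower and 24.2% higher. PR was lowest of the groups for 13 of the 25 and for 4 of the 14, beside 24.9% of all tested genes. It was highest for 4 and for 5, beside 25.6%. ΔIDR was highest for 14 and for 7, beside 10.0%. The difference between the 2 sets was not tested. Members on both sides of the split thus held the core, and a match is a description of letters, not of a bound site.

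The antiviral effectors were 24 tested members, of which 14 were lower and 5 higher with PR than EV, with a median of -0.71. The shares of 58.3% lower and 20.8% higher stood beside 24.4% and 24.2% of all tested genes. The IFIT proteins, which bind viral RNA, made up the clearest set. IFIT2 was at 28.9 and 29.5 CPM with EV, 6.42 and 5.83 with PR, 30.4 and 31.3 with F158E and 63.6 and 56.1 with ΔIDR. Both PR libraries were far below the rest, EV and F158E lay side by side, and ΔIDR was highest. The fall with PR was 2.25 ± 0.13 (adjusted p = 4.57e-27), a 4.77-fold difference, F158E differed from EV by 0.08 ± 0.10 (adjusted p = 0.744), and ΔIDR rose over EV by 1.03 ± 0.10 (adjusted p = 3.89e-14). IFIT3, its binding partner, was at 39.3 and 42.8 CPM with EV, 8.70 and 7.99 with PR, 33.7 and 41.3 with F158E and 73.3 and 71.1 with ΔIDR. The order was the same, with PR lowest and ΔIDR highest and with F158E overlapping EV. IFIT3 fell by 2.30 ± 0.12 with PR (adjusted p = 9.35e-31) and rose by 0.81 ± 0.09 over EV with ΔIDR (adjusted p = 1.13e-11). IFIT1, which recognises caps that lack a host methyl mark, fell by 1.54 ± 0.14 with PR (adjusted p = 2.70e-16) and rose by 0.93 ± 0.12 over EV with ΔIDR (adjusted p = 1.14e-09). OASL, a relative of the OAS enzymes that aids RNA sensing and lacks their activity, had the largest fall among members with at least 10 counts in every library. It was at 13.9 and 16.1 CPM with EV, 1.71 and 0.933 with PR, 10.5 and 11.3 with F158E and 29.6 and 27.5 with ΔIDR, an 11.4-fold difference between EV and PR with no overlap between any 2 groups. The change was -3.49 ± 0.22 with PR (adjusted p = 4.00e-25) and 0.93 ± 0.15 with ΔIDR (adjusted p = 6.74e-07). OASL was also called lower than EV with F158E. That call ended in the DESeq2 Wald test (-0.46, adjusted p = 0.0945) and in 5 of the fits that left out 1 library.

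A second set of effectors was below EV both with PR and with F158E, and kept both calls whichever library was left out. OASL and BST2 were also called lower in both comparisons, but did not keep the call for F158E. IFIT5, which binds RNA with free phosphate ends, was at 3.45 and 3.80 CPM with EV, 0.398 and 1.11 with PR, 1.28 and 1.19 with F158E and 6.57 and 6.77 with ΔIDR. F158E lay beside PR and clear of EV here, unlike for the other IFIT genes. The log2 fold change of F158E against EV was -1.55 ± 0.36 (adjusted p = 0.00145), and the difference of F158E from PR was 0.71 ± 0.44 (adjusted p = 0.19), which passed without PR replicate 2 (1.61, adjusted p = 0.0244). OAS1, which makes the oligoadenylates that activate RNase L, was at 5.18 and 6.28 CPM with EV, 1.82 and 1.63 with PR, 1.83 and 1.74 with F158E and 7.0 and 7.92 with ΔIDR; it is given by library because of its values, outside the rule for such detail. F158E and PR overlapped, at 0.04 ± 0.33 (adjusted p = 0.930), and both were below EV, by log2 fold changes of -1.68 ± 0.29 for F158E (adjusted p = 1.00e-05) and -1.73 ± 0.30 for PR (adjusted p = 9.28e-07). OAS3, another oligoadenylate synthetase, had means of 10.2 CPM with EV, 2.39 with PR, 4.43 with F158E and 12.2 with ΔIDR. IFI6, a mitochondrial and reticulum protein that limits flavivirus, was at 16.3 and 17.2 CPM with EV, 4.26 and 2.33 with PR, 3.93 and 7.86 with F158E and 16.6 and 18.4 with ΔIDR, with the F158E libraries far apart and one of them inside the PR range. Against EV, F158E changed OAS3 by -1.20 ± 0.21 (adjusted p = 1.50e-05) and IFI6 by -1.51 ± 0.19 (adjusted p = 2.81e-09). Both were higher with F158E than PR, OAS3 by 0.89 ± 0.25 (adjusted p = 0.00213; without PR replicate 2 0.70, adjusted p = 0.0581) and IFI6 by 0.83 ± 0.23 (adjusted p = 0.00197; without PR replicate 2 0.46, adjusted p = 0.143, and without F158E replicate 2 0.25, adjusted p = 0.512). With ΔIDR none of these 4 differed from EV past the threshold (adjusted p from 0.0623 to 0.911). IFIT5 was near it, at 0.88 ± 0.32 with both ΔIDR libraries above EV, and passed on the 4 libraries of the comparison alone (adjusted p = 0.0135) and without any one PR or F158E library (adjusted p = 0.0310 to 0.0379). All 4 were higher with ΔIDR than F158E, by 1.46 to 2.43. The latter comparison sets the mutant groups directly against each other.

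IFI44 and IFI44L, neighbouring genes of little-known function, were low throughout. IFI44 was at 0.809 and 1.32 CPM with EV, 0.0569 and 0.0583 with PR, 0.502 and 0.320 with F158E and 1.39 and 1.33 with ΔIDR, and its 2 PR libraries held 1 count each. Summed over libraries, EV was 18.5-fold above PR, with an exact binomial 95% interval of 4.81 to 158.3 that covers counting error only, and the fall had adjusted p = 0.000493 in edgeR. IFI44L had 29 and 3 counts with EV, 0 and 0 with PR, 5 and 2 with F158E and 29 and 11 with ΔIDR. Against a floor of 3 counts per PR library, EV was at least 4.99-fold higher and ΔIDR at least 6.52-fold higher, but both bounds lean on the first library of the group. Without EV replicate 1, EV was at the floor and gave no bound, and the edgeR call against EV ended (adjusted p = 0.141). The bound for ΔIDR was 2.92-fold without ΔIDR replicate 1 and 10.1-fold without ΔIDR replicate 2, and the bound for EV was 9.05-fold without EV replicate 2. The member medians against EV and against PR were the same with IFI44L set at these bounds. OAS2 fell by 3.26 ± 0.70 with PR (adjusted p = 5.02e-05) from a mean of 1.98 CPM.

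**Figure D2:**
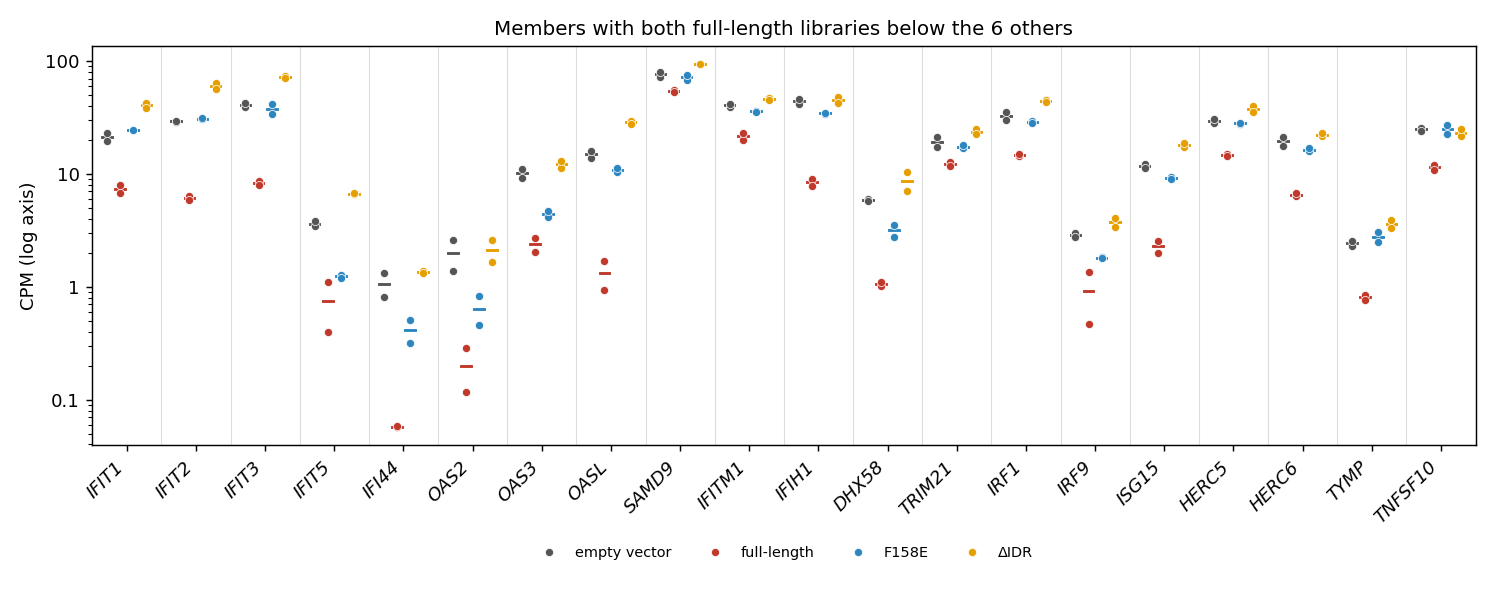
CPM in each library (points; short bars are group means; log axis) for 20 of the 21 members whose full-length libraries both lie below the other 6; IFI44L, at 0 CPM with full-length PML/RARα, cannot be drawn on this axis. F158E sits beside empty vector for IFIT1, IFIT2 and IFIT3 and beside full-length for IFIT5. ΔIDR is the highest group for 17 of the 21, beside 717 of the 3478 tested genes whose full-length libraries are both lowest.

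Against this direction, 5 effectors were higher with PR than EV, and for all 5 both PR libraries stood above the other 6. These were 20.8% of the tested effectors, a share close to the 24.2% of all tested genes called higher. Both PR libraries were highest for 25.6% of all tested genes. MX2, a GTPase that blocks retroviral nuclear entry, was at 103 and 104 CPM with EV, 131 and 142 with PR, 113 and 100.4 with F158E and 110.2 and 109 with ΔIDR. It rose by 0.39 ± 0.06 (adjusted p = 3.46e-09), while the F158E libraries overlapped both EV and ΔIDR. GBP2, a guanylate-binding protein, was at 6.85 and 5.44 CPM with EV, 11.9 and 12.9 with PR, 5.62 and 6.21 with F158E and 8.56 and 7.42 with ΔIDR, a rise of 1.01 ± 0.20 (adjusted p = 1.07e-05). PLSCR1, a membrane protein that interferes with viral entry, was at 17.4 and 17.3 CPM with EV, 25.1 and 25.7 with PR, 13.2 and 16.8 with F158E and 18.7 and 18.3 with ΔIDR. PR was highest and F158E lowest of the 4 groups, with a rise over EV of 0.55 ± 0.13 (adjusted p = 2.51e-04). SAMHD1, which degrades deoxynucleotides, was at 38.2 and 36.8 CPM with EV, 48.4 and 56.0 with PR, 38.3 and 34.8 with F158E and 43.3 and 46.9 with ΔIDR and rose by 0.48 ± 0.09 (adjusted p = 6.50e-06). EIF2AK2, the kinase PKR that halts translation, was at 164 and 174 CPM with EV, 180.1 and 188 with PR, 168 and 169.8 with F158E and 175 and 175 with ΔIDR. Its rise of 0.12 ± 0.04 (adjusted p = 0.0174) ended without EV replicate 1 (0.08, adjusted p = 0.257) or PR replicate 2 (0.10, adjusted p = 0.167). Fold changes of these 5 were at most 1.01 on the log2 scale, smaller than the falls of the IFIT and OAS genes.

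Other effectors moved less. SAMD9, a growth and virus restriction factor, and IFITM1, a membrane factor against viral entry, fell with PR by 0.49 ± 0.07 and 0.93 ± 0.10 (adjusted p = 6.20e-09 and adjusted p = 7.73e-13). IFITM1 shares 32.5% of its exon bases with IFITM2, so reads from these bases may be missing from both. Ambiguous reads, 3.37% to 3.47% of those recorded in a library, were set apart from the gene counts. BST2, which tethers budding virions, was highest with ΔIDR. Its means were 74.2 CPM with EV, 65.8 with PR, 60.8 with F158E and 101 with ΔIDR. It rose over EV by 0.44 ± 0.07 with ΔIDR (adjusted p = 2.36e-07) and was called lower than EV with PR and with F158E. The PR call ended in the DESeq2 Wald test (-0.17, adjusted p = 0.0766) and in 3 of the fits that left out 1 library. The F158E call ended in 2 of those fits. SAMD9L, the neighbour of SAMD9, was 1.07 ± 0.24 higher with ΔIDR than PR (adjusted p = 8.34e-05) and did not pass between PR and EV (-0.33 ± 0.25, adjusted p = 0.278). TRIM22, a restriction factor, and GBP1 passed in none of the 6 comparisons. ISG20, an RNA exonuclease with 1 to 20 counts, was called once, lower with F158E than PR, and this call ended without PR replicate 1 (-0.02, adjusted p = 0.994). Of the 24 tested effectors, 10 were higher and 6 lower with F158E than PR, beside 22.2% and 21.8% of all tested genes. With ΔIDR against PR, 15 were higher and 4 lower, beside 24.9% and 24.9%. The share lower than PR was thus close to that of all genes with F158E, and below it with ΔIDR. Between the mutants, 15 were higher and 1 lower with ΔIDR than F158E, beside 9.17% and 9.37%.

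The nucleic acid sensors and their regulators split evenly. With PR, 3 of the 6 tested members fell and 3 rose, beside 24.4% and 24.2% of all tested genes. IFIH1, which encodes MDA5, the sensor of long double-stranded RNA, was at 41.7 and 46.1 CPM with EV, 9.04 and 7.81 with PR, 34.2 and 34.8 with F158E and 48.2 and 42.6 with ΔIDR. PR was 5.21-fold below EV, at -2.38 ± 0.12 (adjusted p = 4.95e-31). F158E was below EV at -0.35 ± 0.10 (adjusted p = 0.0132; without EV replicate 2 -0.27, adjusted p = 0.251; without F158E replicate 1 or 2 adjusted p = 0.102 and 0.0677), and ΔIDR overlapped EV. DHX58, encoding the regulator LGP2 of the same family, was at 5.93 and 5.70 CPM with EV, 1.02 and 1.11 with PR, 3.52 and 2.79 with F158E and 7.06 and 10.4 with ΔIDR. PR was lowest, F158E intermediate and ΔIDR highest with no overlap between groups, and the fall with PR was 2.44 ± 0.32 (adjusted p = 2.04e-10). TRIM21, a cytosolic antibody receptor and ubiquitin ligase, was at 17.3 and 21.1 CPM with EV, 12.6 and 11.7 with PR, 16.8 and 18.0 with F158E and 25 and 22.4 with ΔIDR, a fall of 0.66 ± 0.14 (adjusted p = 4.93e-05).

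The other tested members of this role group stood highest with PR. IFI16, a sensor of DNA in the nucleus, was at 9.22 and 6.33 CPM with EV, 18.3 and 19.2 with PR, 5.71 and 7.13 with F158E and 7.90 and 9.11 with ΔIDR. Both PR libraries were well above all others, and the rise was 1.27 ± 0.18 (adjusted p = 3.30e-09). ADAR, which edits double-stranded RNA and so hides it from MDA5, was the most abundant member in CPM, at 365 and 360.5 CPM with EV, 446 and 432 with PR, 351 and 349.6 with F158E and 363 and 356 with ΔIDR. The rise with PR was 0.28 ± 0.03 (adjusted p = 4.18e-12), and F158E was lowest. TRIM25, a ubiquitin ligase that activates RIG-I, was at 89.0 and 89.4 CPM with EV, 119 and 109 with PR, 80.6 and 75.4 with F158E and 109 and 95.8 with ΔIDR, a rise of 0.35 ± 0.06 (adjusted p = 7.69e-07). With F158E, IFI16, ADAR and TRIM25 were lower than with PR, at log2 fold changes of -1.55, -0.33 and -0.55 (adjusted p = 7.05e-12, 3.90e-15 and 1.60e-12).

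**Figure D3:**
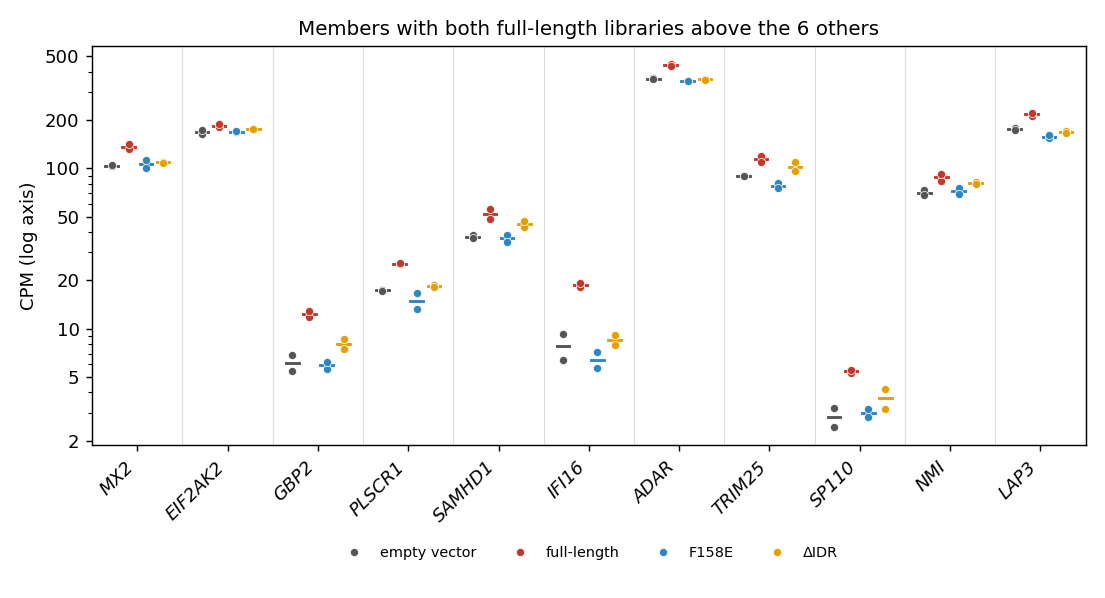
CPM in each library (points; short bars are group means; log axis) for the 11 members whose full-length libraries both lie above the other 6. The gap is widest for IFI16, at 18.3 and 19.2 CPM with full-length PML/RARα and at most 9.22 elsewhere, and F158E and ΔIDR lie near empty vector for most members.

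Among the 9 transcription factors and nuclear cofactors, 2 were lower and 2 higher with PR than EV, shares of 22.2% each that were close to the 24.4% and 24.2% of all genes. IRF1, a factor that binds interferon promoters and is itself induced through the gamma-activated sequence printed above, was at 35.4 and 29.9 CPM with EV, 14.3 and 15 with PR, 29.4 and 28.0 with F158E and 45.2 and 43.2 with ΔIDR. It fell by 1.15 ± 0.12 with PR (adjusted p = 1.59e-14), and ΔIDR was above EV by 0.44 ± 0.10 (adjusted p = 0.00142), a call that ended without EV replicate 2 (0.32, adjusted p = 0.133). IRF1 shares 22% of its exon bases with the antisense gene IRF1-AS1, which had at most 31 counts, and the library kit does not mark strand. IRF9, the DNA-binding part of ISGF3, was at 2.97 and 2.74 CPM with EV, 1.36 and 0.467 with PR, 1.83 and 1.78 with F158E and 4.10 and 3.39 with ΔIDR. The fall of 1.63 ± 0.43 (adjusted p = 0.00103) ended without PR replicate 2 (-1.06, adjusted p = 0.0735), and 48.4% of the exon bases of IRF9 lie also in a second gene model. STAT2, the ISGF3 subunit that IRF9 binds, did not pass between PR and EV (0.29 ± 0.13, adjusted p = 0.0586; without the trimmed-mean factor 0.31, adjusted p = 0.0407), nor did IRF7, a driver of interferon genes (0.04 ± 0.21, adjusted p = 0.905). IRF7 passed in none of the 6 comparisons.

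SP110, a nuclear body protein, was at 3.18 and 2.43 CPM with EV, 5.29 and 5.54 with PR, 3.15 and 2.83 with F158E and 3.14 and 4.21 with ΔIDR. PR was highest, with a rise of 0.95 ± 0.30 (adjusted p = 0.00614) that ended without EV replicate 2 (0.76, adjusted p = 0.0844). NMI, a binding partner of STAT proteins, was at 72.8 and 68.1 CPM with EV, 83.6 and 92.1 with PR, 74.8 and 69.6 with F158E and 81.7 and 79.4 with ΔIDR and rose by 0.32 ± 0.07 (adjusted p = 3.84e-05). Its partner IFI35 was at 2.75 and 1.32 CPM with EV, 1.76 and 1.40 with PR, 0.685 and 0.914 with F158E and 1.93 and 3.20 with ΔIDR, with F158E lowest and EV overlapping both PR and ΔIDR, and did not pass against EV in any comparison.

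PARP9 and DTX3L, which form an ADP-ribosyl transferase and ubiquitin ligase complex, showed another order. PARP9 was at 17.5 and 14.9 CPM with EV, 16.7 and 14.6 with PR, 10.7 and 12.3 with F158E and 24.4 and 22.4 with ΔIDR, and DTX3L was at 27.7 and 27.9 CPM with EV, 26.4 and 26.4 with PR, 20.0 and 20.6 with F158E and 38.4 and 32.9 with ΔIDR. In both genes PR lay near EV, both F158E libraries were lowest and both ΔIDR libraries highest. PR differed from EV by -0.05 ± 0.14 for PARP9 and -0.07 ± 0.11 for DTX3L (adjusted p = 0.787 and adjusted p = 0.623). ΔIDR stood above F158E by 1.02 ± 0.14 for PARP9 (adjusted p = 8.22e-09) and 0.81 ± 0.11 for DTX3L (adjusted p = 6.51e-09). The 2 genes face away from each other and share 217 exon bases at their starts. Over the whole role group 6 of 9 were higher with ΔIDR than F158E and 0 lower, beside 9.17% and 9.37% of all genes, and 4 of 9 were higher with ΔIDR than EV, beside 5.06%. None of the 4 calls over EV (STAT2, IRF1, PARP9 and DTX3L) held whichever library was left out. Of the 6 calls over F158E, those of IRF1, PARP9 and DTX3L held, and those of STAT2, IRF9 and IFI35 did not.

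ISG15, the ubiquitin-like protein that is attached to other proteins in the interferon response, fell with PR, as did HERC5 and HERC6. ISG15 was at 12.1 and 11.3 CPM with EV, 1.99 and 2.57 with PR, 9.41 and 8.96 with F158E and 17.3 and 18.8 with ΔIDR. PR was lowest and ΔIDR highest without overlap, and the fall was 2.36 ± 0.21 (adjusted p = 8.67e-17), 5.14-fold. HERC5, the main ligase for ISG15 in human cells, was at 28.4 and 30.9 CPM with EV, 15.1 and 14.5 with PR, 27.7 and 28.4 with F158E and 39.9 and 35.3 with ΔIDR, a fall of 1.00 ± 0.12 (adjusted p = 1.13e-11). HERC6, its neighbour and relative, was at 21.4 and 17.8 CPM with EV, 6.31 and 6.76 with PR, 15.8 and 16.9 with F158E and 21.5 and 23.1 with ΔIDR, a fall of 1.58 ± 0.16 (adjusted p = 7.23e-15). For both, F158E was close to EV (-0.08 ± 0.11 and -0.26 ± 0.14, adjusted p = 0.755 and adjusted p = 0.281).

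UBE2L6, the enzyme that passes ISG15 to its ligases, was at 0.647 and 1.32 CPM with EV, 4.09 and 0.991 with PR, 1.05 and 0.822 with F158E and 1.09 and 0.687 with ΔIDR. Only PR replicate 1, with 72 counts against 17 in PR replicate 2, stood apart. The rise of 1.37 ± 0.56 (adjusted p = 0.0359) ended without PR replicate 1 (0.01, adjusted p = 0.995), without EV replicate 1 (0.94, adjusted p = 0.284) and in DESeq2 (adjusted p = 0.0818). USP18, which removes ISG15 and damps the receptor, was at 1.78 and 2.11 CPM with EV, 2.50 and 2.27 with PR, 2.10 and 1.05 with F158E and 3.20 and 1.92 with ΔIDR and passed in none of the 6 comparisons, and no group stood apart.

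Of the 5 genes of antigen supply, secretion and metabolism, 3 fell and 1 rose with PR, beside 24.4% and 24.2% of all tested genes. TYMP, thymidine phosphorylase, was at 2.32 and 2.53 CPM with EV, 0.853 and 0.758 with PR, 3.06 and 2.51 with F158E and 3.92 and 3.30 with ΔIDR, a fall of 1.58 ± 0.43 (adjusted p = 0.00125). It shares 10.5% of its exon bases with ODF3B, which had at most 32 counts. TNFSF10, the death ligand TRAIL, was at 25.6 and 24.2 CPM with EV, 12.1 and 10.8 with PR, 27.4 and 22.5 with F158E and 21.5 and 24.9 with ΔIDR. PR was lowest, at -1.12 ± 0.14 (adjusted p = 2.47e-11), and the 3 other groups overlapped. LAP3, an aminopeptidase, was at 179 and 172 CPM with EV, 213 and 221 with PR, 155 and 161 with F158E and 171 and 167 with ΔIDR, with PR highest at 0.31 ± 0.04 (adjusted p = 3.14e-09) and F158E lowest.

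LGALS3BP, a secreted galectin-binding protein, was at 62.9 and 62.3 CPM with EV, 55.7 and 46.8 with PR, 46.4 and 39.7 with F158E and 67.4 and 69.6 with ΔIDR. F158E was lowest and ΔIDR highest, as for PARP9 and DTX3L, and F158E was below EV by a log2 fold change of -0.54 ± 0.08 (adjusted p = 2.86e-07). Its smaller fall with PR, 0.29 ± 0.08 (adjusted p = 0.00190), ended without PR replicate 2 (-0.17, adjusted p = 0.177). TAP1, the peptide transporter of antigen presentation, was at 12.7 and 8.81 CPM with EV, 8.53 and 9.74 with PR, 9.27 and 9.28 with F158E and 8.02 and 11.2 with ΔIDR and passed in none of the 6 comparisons.

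Position in the genome was not used to choose the list, and 19 members fell into 8 clusters of genes within 200 kb of each other in GENCODE 29 on GRCh38. In the IFIT cluster (chr10:89283694-89421001) the order along the chromosome is IFIT2, IFIT3, IFIT1 and IFIT5, and all 4 fell with PR, by 1.54 to 2.30. With F158E the first 3 were near EV, at 0.08, -0.13 and 0.20, whereas IFIT5 was at -1.55. In the OAS cluster (chr12:112906777-113011723) OAS1, OAS3 and OAS2 all fell with PR, and with F158E they were at -1.68, -1.20 and -1.62 relative to EV, the last not called (adjusted p = 0.0646). OASL lies apart from them, at chr12:121019111-121039242. Neighbours did not always share a call with PR, although in both pairs named here the log2 fold changes had the same sign. IFITM1 fell, whereas IFITM2 did not pass, at -0.12 ± 0.07 (adjusted p = 0.179). SAMD9 fell, whereas SAMD9L did not pass. The difference within a pair was not tested. In HERC6 and HERC5 alike PR was lowest and ΔIDR highest, and in PARP9 and DTX3L alike F158E was lowest and ΔIDR highest. HERC6 was not called between ΔIDR and EV. The HERC5 call over EV ended in the DESeq2 Wald test (0.34, adjusted p = 0.0557) and in 3 of the fits that left out 1 library.

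The rest of the interferon pathway was read on 43 genes in 5 classes, of which 29 were tested. None of the 10 interferon ligands passed the filter: the highest, IFNA1, reached 4 counts in a library, IFNB1 reached 1, and IFNG and the lambda interferons listed were at 0. With PR, 14 of the 29 pathway genes were lower than EV and 3 higher (48.3% and 10.3%), beside 24.4% and 24.2% of all genes, with a median of -0.19.

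Most receptors were low with PR. IFNGR2, a chain of the interferon gamma receptor, was at 96.3 and 96.7 CPM with EV, 49.1 and 51.3 with PR, 83.8 and 87.7 with F158E and 93.2 and 86.7 with ΔIDR, a fall of 0.94 ± 0.07 (adjusted p = 5.27e-22) with no overlap between PR and the rest. IFNAR1 and IFNAR2, the chains of the type I receptor, fell by 0.45 ± 0.06 (adjusted p = 3.35e-11) and 0.64 ± 0.14 (adjusted p = 6.24e-05). In all, 4 of the 5 tested receptors were lower with PR than EV, and all 5 were higher with ΔIDR than PR, beside 24.4% and 24.9% of all genes. IFNGR1, the ligand-binding chain of the gamma receptor, was the exception with PR (-0.12 ± 0.07, adjusted p = 0.187).

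Downstream of the receptors, STAT3, which also serves other cytokines, was at 72.7 and 79.6 CPM with EV, 119.7 and 118 with PR, 81.8 and 88.3 with F158E and 67.0 and 72.2 with ΔIDR, a rise of 0.64 ± 0.06 (adjusted p = 5.55e-15). The receptor kinase JAK1 was lower with PR, at -0.19 ± 0.05 (adjusted p = 0.00248), a call that ended without PR replicate 1 (-0.08, adjusted p = 0.332). TYK2 did not pass (0.10 ± 0.04, adjusted p = 0.0549) but did without PR replicate 2 (0.16, adjusted p = 0.0102).

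Among the upstream sensors and adaptors, 5 of 12 tested were lower and 2 higher with PR, against the same 24.4% and 24.2% of all genes. MAVS, the mitochondrial adaptor of RNA sensing, was at 84.1 and 71.1 CPM with EV, 159.6 and 153 with PR, 82.8 and 78.5 with F158E and 74.7 and 75.5 with ΔIDR, so that both PR libraries were far above the rest and both mutants lay within the EV range. The rise was 1.01 ± 0.06 (adjusted p = 2.77e-26). STING1, the adaptor of DNA sensing, was at 82.0 and 74.5 CPM with EV, 47.0 and 48.7 with PR, 80.9 and 78.5 with F158E and 84.4 and 78.2 with ΔIDR and fell by 0.71 ± 0.07 (adjusted p = 2.19e-14). IRF3, the factor that both adaptors activate, did not pass (0.10 ± 0.09, adjusted p = 0.366). Of the 7 brakes on the pathway 3 fell with PR, again beside 24.4% of all genes, among them IRF2BP2, a corepressor of IRF2, by 0.50 ± 0.05 (adjusted p = 6.65e-15), and PIAS1, an inhibitor of STAT signalling, by 0.31 ± 0.05 (adjusted p = 1.81e-07).

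**Figure D4:**
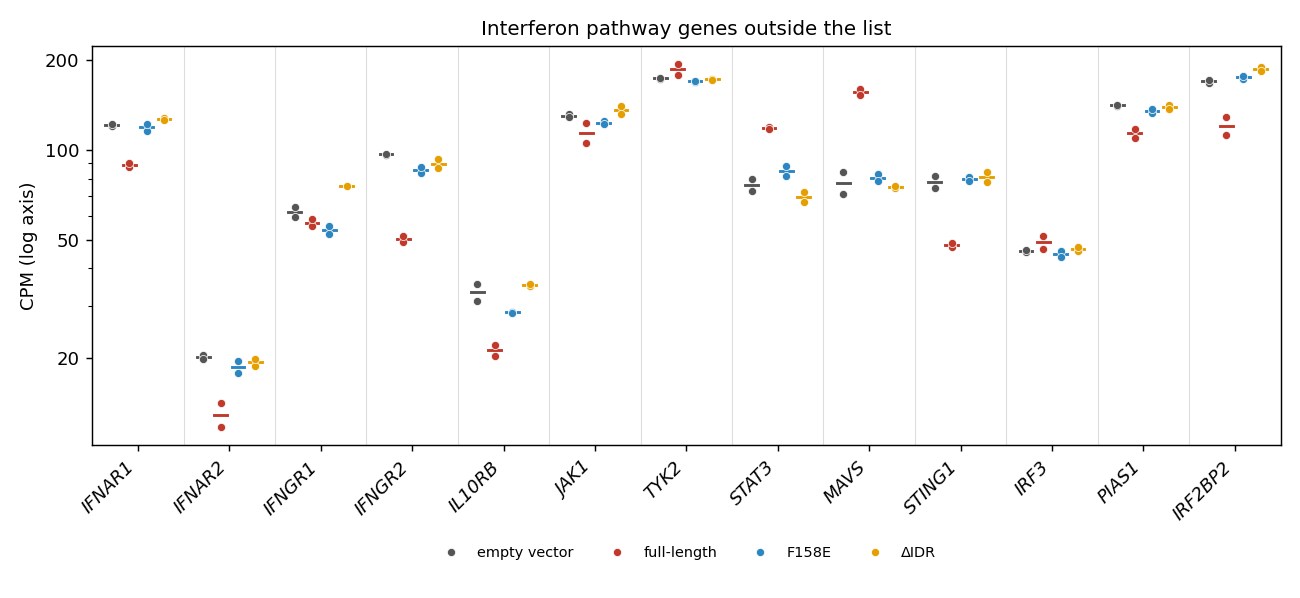
CPM in each library (points; short bars are group means; log axis) for 13 genes of the interferon pathway outside the list. Full-length PML/RARα is lowest for the receptor chains IFNAR1, IFNAR2, IFNGR2 and IL10RB and for STING1, and highest for STAT3 and MAVS.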

How the data were processed

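Total RNA of 8 NB4 libraries, depleted of ribosomal RNA, was made into libraries with a kit that does not mark strand, per the labels' protocols. The authors deposited 1 file per library with raw read counts for each gene and no normalization; builds hg38 and GRCh38 are named in the submitters' processing notes, and the aligner, counter and annotation are not given in the sources used here. Lines that name no gene were left out, and 87.9% to 88.7% of the recorded reads were assigned to genes. Symbols came from a table of gene names and positions from GENCODE 29.

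Counts were fitted with edgeR 4.0.16 in R 4.3.3, in 1 model of the 8 libraries, with TMM factors of 0.989 to 1.01 and filterByExpr, which left 13982 genes. Calls are at a Benjamini-Hochberg adjusted p under 0.05 in each of 6 comparisons. The square root of the common dispersion was 0.0486. The median log2 difference between the libraries of a group was 0.124 to 0.175 among members and 0.123 to 0.126 among all genes. CPM come from the same factors, and levels per kilobase use the summed exon length. Intervals and floors (3 counts) cover counting error only. The fit was tested on simulated counts. Alternatives were DESeq2 1.42.0 (size factors and Wald test), no TMM factor, no filter, a test against a fold of 1.5, the 4 libraries of a comparison alone, a replicate block and leaving out each library.

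The members, their role groups, the pathway list and the tests were chosen with earlier results of these data known. Values by library are given for up to 6 members per role with the largest range of group means and for members called against the majority of their role with PR; OAS1 was added after its values were seen. Pathway genes were named by a fixed panel and by the 2 smallest p-values per class, and 1 gene of that list is counted but not reported here. Promoter windows came from RefSeq (GRCh38.p14).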

Additional observations from a re-analysis of the deposited data

How the results depend on the processing

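Over 49 tested members and 6 comparisons, 4388 log2 fold changes were recomputed under the alternatives: 4124 kept their side of the threshold, 239 calls were lost, 25 were gained and 0 reversed, where a sign change of a value called in neither fit was not counted. The test against a fold of 1.5 took most of what was lost outside the left-out libraries (92 calls). Under it, members higher and lower were 2 and 21 for PR against EV (12 and 25 with the threshold on p alone), 12 and 2 for F158E against PR, 24 and 1 for ΔIDR against PR, 0 and 2 for F158E against EV, 1 and 0 for ΔIDR against EV, and 10 and 0 for ΔIDR against F158E. Pathway genes in that order were 1 and 2, 1 and 3, 4 and 2, 0 and 0, 0 and 0, and 0 and 0. All tested genes were 552 and 776, 540 and 393, 917 and 694, 1 and 23, 61 and 49, and 154 and 68. DESeq2 left 1 pathway gene lower with F158E than EV, where edgeR had 3.

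Leaving out 1 library gave these ranges of members higher and lower: 10 to 12 and 22 to 25 for PR against EV; 17 to 19 and 11 to 15 for F158E against PR; 28 to 28 and 5 to 8 for ΔIDR against PR; 0 to 0 and 7 to 14 for F158E against EV; 7 to 17 and 0 to 0 for ΔIDR against EV; 23 to 29 and 0 to 1 for ΔIDR against F158E. The lowest counts were 5 without ΔIDR replicate 2 (lower than PR), 7 without EV replicate 1 and 8 without F158E replicate 2 (F158E lower than EV), 9 without EV replicate 1 and 7 without EV replicate 2 (ΔIDR higher than EV), and 0 without F158E replicate 1 or ΔIDR replicate 2 (lower than F158E). Pathway genes ranged from 3 to 4 and 11 to 14, 9 to 11 and 3 to 5, 14 to 16 and 2 to 5, 0 to 0 and 1 to 2, 1 to 4 and 0 to 0, and 4 to 8 and 1 to 1. Their lowest counts came without PR replicate 1 (3 lower in F158E and 2 in ΔIDR, against PR), without EV replicate 1, EV replicate 2 or F158E replicate 2 (1 lower with F158E than EV), without EV replicate 2 (1 higher with ΔIDR than EV) and without either F158E library (4 higher with ΔIDR than F158E). Counts over all genes moved by over 1.5 times for F158E against EV (281 to 351 higher and 357 to 435 lower without any one of its 4 libraries), for ΔIDR against EV (471 higher without EV replicate 2, and 445, 413 and 465 lower without EV replicate 1, EV replicate 2 and ΔIDR replicate 2) and for genes lower with ΔIDR than F158E (872 without F158E replicate 1 and 796 without ΔIDR replicate 2).

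Replicate numbers did not pair the samples (correlations of deviations from -0.0163 to 0.0206). With the replicate block, members higher and lower were 11 and 25, 19 and 15, 28 and 9, 0 and 13, 15 and 0, and 29 and 1, and the calls of UBE2L6 (1.17, adjusted p = 0.0868) for PR against EV and ISG20 (-2.25, adjusted p = 0.0692) for F158E against PR ended. The cause of these changes was not tested. Precision is limited by few reads for the 7 members under 10 counts in some library, and ZBP1, at 0 counts, has no fold change.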
